A study of Homo sapiens with 18 samples.

Results

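Gene expression of HCC827 was compared with that of H1975 across the whole transcriptome, as read counts per gene from Illumina short reads, given below as CPM, counts scaled to a common library size. The comparison takes the 3 HCC827 and the 3 H1975 Illumina libraries, 6 of the 18 libraries of the series, and every Ensembl gene in their files, 60617 after the synthetic spike-in RNAs were left out. Both are established human lung adenocarcinoma lines from ATCC, H1975 under the label NCI-H1975, and both are known for activating mutations of the EGFR receptor. They were grown untreated in RPMI 1640 with fetal calf serum and antibiotics to near confluence and frozen as suspensions, and each line gave 3 independent samples. A directional kit turned 3.75 ng of poly(A) mRNA into libraries in 11 PCR cycles, and a NextSeq 500 read pairs of 75 nt. Each line is the culture of 1 tumour, so a difference between them belongs to these lines and p-values measure the spread between these samples.

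Lung adenocarcinoma arises from epithelial cells of the distal airway and alveolus, and its lines keep different amounts of that identity. Epithelial cells hold together through claudins, cadherins and desmosomes and fill their cytoplasm with keratin filaments, whereas mesenchymal cells make vimentin and fibrillar collagens and reshape the matrix with secreted proteases. Lines also differ in the HOX genes, which keep a record of body position, in KRAB zinc finger genes, which bind mobile elements, and in germline genes that somatic tissue keeps methylated.

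Gene totals were 36948221, 40200473 and 33362018 counts in H1975 and 36838573, 10020699 and 34722416 counts in HCC827. The 3 H1975 libraries lay close together, with root mean square log2 differences of 0.114 to 0.128 over 12603 genes, while HCC827 pairs lay 0.271 to 0.322 apart and libraries of different lines 1.22 to 1.34 apart. HCC827 replicate 1 differed from HCC827 replicates 2 and 3 with GC content, having median log2 differences of 0.22 and 0.047 in the lowest of 10 equal GC bins and -0.34 and -0.27 in the highest. HCC827 replicate 3, whose file header names a repeat run and carries the number 5 where the label gives 3, was used as labelled. It had 3.22% of its counts in 6 lncRNA genes of the ribosomal DNA arrays, against 0.160% to 0.303% in the other 5 libraries. In the same library RN7SK, an abundant nuclear RNA without a poly(A) tail, had 59.7 CPM, whereas the other HCC827 libraries had 1.76 and 2.22 CPM and the H1975 libraries 0.892 to 1.28 CPM. HFM1 and PDE3A, picked after their values were seen, also stood at 162 and 141 CPM in it against at most 17.8 and 34.7 CPM elsewhere. The part of these library differences in the results below was not tested, but the counts of called genes, the named genes, the list medians, the windows and the shares of counts were recomputed without each library in turn.

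Of 25711 genes with enough counts to test, 19061 (74.1%) differed between the lines at an adjusted p below 0.05 (edgeR). In HCC827 9293 genes were higher (36.1%) and 9768 lower (38.0%). A stricter test, which asks whether the difference is larger than 2-fold, called 7015 genes (27.3%), 3367 higher (13.1%) and 3648 lower (14.2%), and the libraries of the lines did not overlap for 19768 genes (76.9%). These shares are the background for every gene group below. The median log2 fold, HCC827 over H1975, was -0.036 over all tested genes and the median absolute log2 fold 0.766. An absolute log2 fold under 0.5 was found for 8954 genes (34.8%), one of 2 to 4 for 2583 (10.0%) and one over 4 for 1172 (4.56%). Scaling by library totals alone moved the median of all genes to -0.384, so folds below are relative to the main scaling. Protein-coding genes were called at 78.2% of 15476, lncRNA genes at 70.1% of 6012 with a median log2 fold of -0.22, and pseudogenes at 65.7% of 3421 with a median of 0.13. Median levels of these classes were 20.9, 1.97 and 2.09 CPM, and genes under 1 CPM were called at only 59.8%. With a filter of 1 CPM in 3 libraries the class shares were 79.7%, 76.7% and 74.2%. Past 2-fold they were 27.5%, 29.7% and 22.9% in the main fit. Highly counted genes leaned to HCC827: of 63 genes with a mean of 1000 CPM or more, 44 were higher, 7 lower and the median was 0.88, against -0.38 for the 5136 genes under 1 CPM.

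**Figure D1:**
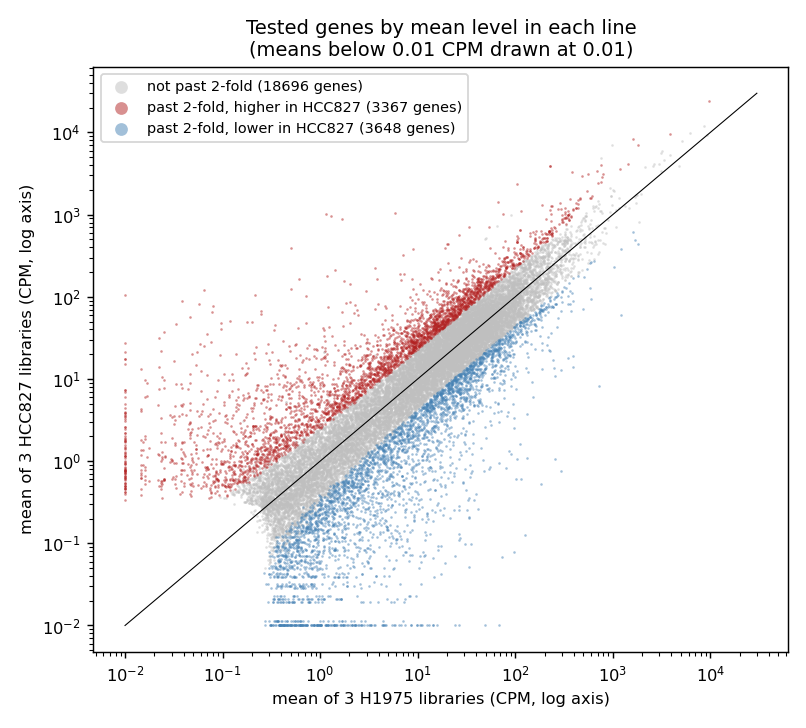
Mean CPM of each tested gene in H1975 (x axis) and HCC827 (y axis), both on log scales, with genes called past 2-fold coloured by direction. The 3367 genes higher and 3648 lower past 2-fold lie on both sides of the diagonal over the whole range of levels.

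The largest folds were differences between presence and near absence. BEX3, an X-linked adaptor of neurotrophin receptor signalling (ENSG00000166681, chrX:103376395-103378164, GRCh38), had 0, 0 and 0 CPM in H1975 and 91.8, 108 and 112 CPM in HCC827, at least 4337-fold higher in HCC827 (adjusted p = 1.02e-12). No BEX3 count was found in H1975. KRT4, a keratin of stratified non-cornified epithelium (chr12:52806549-52814116), had 0.0965, 0.0435 and 0.0531 CPM in H1975 and 98.6, 136 and 130.5 CPM in HCC827 (log2 fold 10.80 ± 0.24, adjusted p = 4.43e-13). The libraries of the lines did not overlap. PRODH, the mitochondrial enzyme that starts proline breakdown (chr22:18912777-18936553), had 0.941, 1.41 and 1.12 CPM in H1975 and 764, 1051 and 1212 CPM in HCC827 (log2 fold 9.76 ± 0.23, adjusted p = 5.19e-13). It combined a large fold with a high level in HCC827. The other genes with folds of this size were SFTA2 (log2 fold 10.97 ± 0.26), a secreted surfactant-associated protein, CEACAM5 (log2 fold 10.41 ± 0.30), the carcinoembryonic antigen, TOX3 (log2 fold 10.10 ± 0.25), a nuclear HMG box protein, STK26 (a count ratio of 1374 with an exact interval of 469.5 to 6666), a kinase of the MST family, TSPYL5 (at least 895-fold higher), and the melanoma antigen genes MAGED4 (log2 fold 10.35 ± 0.27) and MAGED4B, near-identical copies whose counts cannot be told apart.

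In the other direction, COL1A2, a chain of type I collagen (chr7:94394895-94431227), had 75.2, 63.4 and 66.6 CPM in H1975 and 0.0288, 0 and 0 CPM in HCC827. A single count of COL1A2 was read in HCC827 against 8538 in H1975, a count ratio of 4976 with an exact interval of 893 to 196573. MT1E, a metal-binding metallothionein (chr16:56625475-56627112), had 128, 123 and 129 CPM in H1975 and 0, 0.35 and 0.0338 CPM in HCC827 (log2 fold -11.07 ± 0.29, adjusted p = 8.21e-13). The other metallothionein genes named below differed less. The metallothionein pseudogene MT1L, picked after its values were seen, had 10.0, 10.2 and 9.17 CPM in H1975. No MT1L count was read in HCC827, which makes it at least 238-fold lower there. PSG4, a pregnancy-specific glycoprotein of the placenta (chr19:43192702-43207299), had 26.9, 26.0 and 27.5 CPM in H1975 and 0, 0 and 0 CPM in HCC827, at least 650.5-fold lower in HCC827 (adjusted p = 8.59e-12). CT45A1, a germline gene of the X chromosome with near-identical neighbours, was at least 1179-fold lower in HCC827 (adjusted p = 2.86e-12) and CT45A2 at least 579-fold lower. Further genes of this group were SNURF (log2 fold -10.27 ± 0.24), which shares a transcript with the imprinted SNRPN, ENSG00000214265 (log2 fold -10.40 ± 0.20) at the same chromosome 15 locus, CMBL (log2 fold -9.24 ± 0.27), a hydrolase of liver and gut, and the zinc finger genes ZNF676 (log2 fold -9.01 ± 0.28) and ZNF556 (log2 fold -8.70 ± 0.24). For both directions the libraries of the lines did not overlap.

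Ranked by difference in level instead of fold, housekeeping and structural genes led. GAPDH, a glycolytic enzyme, had 1681, 1482 and 1621 CPM in H1975 and 6056, 9722 and 9251 CPM in HCC827 (log2 fold 2.39 ± 0.16, adjusted p = 7.29e-09), and its log2 fold was 1.76 after correction for GC content. OS9, a lectin of endoplasmic reticulum quality control (chr12:57693841-57728342), had 242, 218 and 223 CPM in H1975 and 3369.7, 4078 and 4366 CPM in HCC827 (log2 fold 4.11 ± 0.13, adjusted p = 4.54e-12). The libraries of each line kept apart for both genes, as they did for ACTG1, cytoplasmic actin (log2 fold 1.95 ± 0.12). Of the mitochondrial mRNAs, MT-CO2 (log2 fold 1.33 ± 0.11) and MT-ATP6 (log2 fold 0.67 ± 0.10) rose most in CPM. The 5 largest losses were FN1, fibronectin, with 1909, 1718 and 1873 CPM in H1975 and 409.9, 418 and 499 CPM in HCC827 (log2 fold -2.05 ± 0.11, adjusted p = 1.08e-09); AHNAK (log2 fold -1.79 ± 0.19), a giant membrane scaffold; VIM (log2 fold -4.33 ± 0.15), vimentin, at 1212 ± 22.5 CPM in H1975 and 60.7 ± 13.6 CPM in HCC827; TGFBI (log2 fold -1.20 ± 0.12), a matrix protein induced by TGF-beta; and the chaperone HSP90AA1 (log2 fold -1.38 ± 0.10). Per kilobase of exon, MT-ATP8, MT-ATP6, MT-ND4, MT-CO3 and MT-RNR2 were the highest in H1975, at 12748, 9071, 6778, 6611 and 6284 CPM per kb. In HCC827 MT-ATP8 was again highest at 20014, followed by MT-RNR2 at 15295, MT-ATP6 at 14405, MT-CO2 at 14042 and MT-CO3 at 10035 CPM per kb. MT-ND4 was the exception among them, with 9340.1 ± 290.0 CPM in H1975 and 9208 ± 1983 CPM in HCC827 and a fold that did not pass the test (adjusted p = 0.899).

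**Figure D2:**
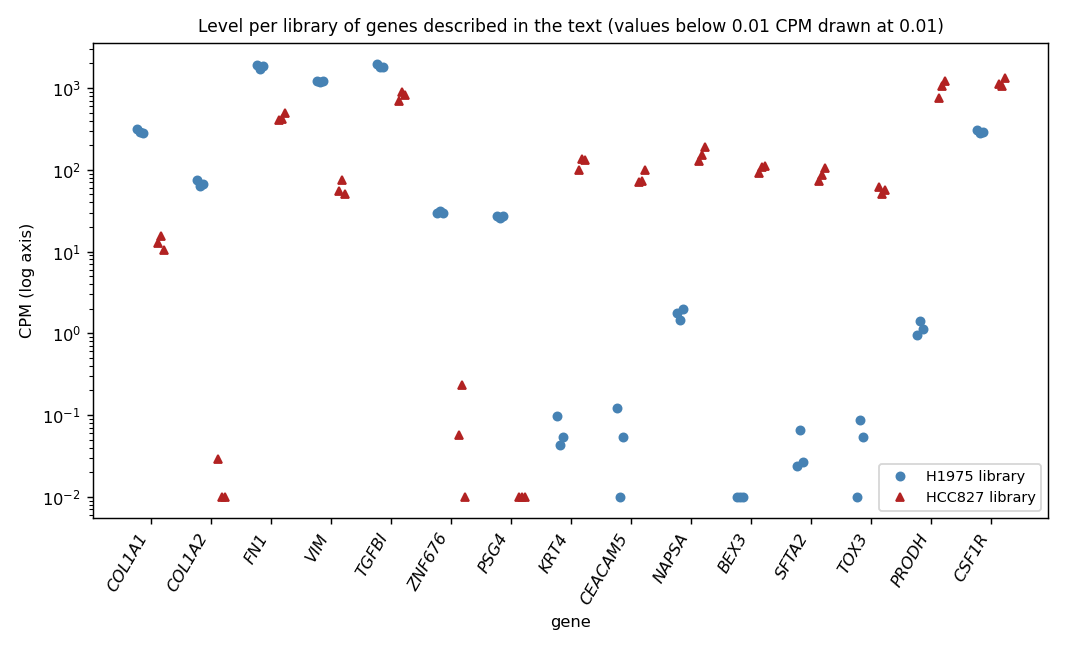
CPM of single genes in each library, on a log axis, with a point per library and the lines in separate colours. Values below 0.01 CPM are drawn at 0.01, and the 3 points of a line sit close together beside the distance between the lines.

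Genes read in 1 line only were defined by under 0.1 CPM in every library of one line and 5 CPM or more in every library of the other. Of the 15842 genes that reached 5 CPM in every library of a line, 71 (0.448%) met this, 37 in HCC827 and 34 in H1975, of which 6 and 17 had no count at all in the other line. Protein-coding genes made up 30 of the 37 and 22 of the 34, and lncRNA genes 6 and 7. The X chromosome held 7 and 8 of them, chromosome 17 held 5 of the HCC827 genes and chromosome 19 held 5 of the H1975 genes. The 8 X-linked genes read in H1975 were all CT45 genes, near-identical neighbours that amount to 1 locus. Most of these were among the 17 genes without a count in HCC827. Fewer counts were read in HCC827 than in H1975, so a gene reaches 0 more easily there. Read in HCC827 were KRT4, BEX3, SFTA2, TOX3, MAGED4, MAGED4B and STK26 (above), ST6GALNAC1 (log2 fold 8.55 ± 0.23), which caps mucin sugars with sialic acid, and KRT20 (a count ratio of 968 with an exact interval of 331 to 4699.9), the keratin of gut epithelium. AQP5, a water channel of alveolar type I cells and glands picked here after its values were seen, had 0, 0 and 0 CPM in H1975 and 13.2, 16.8 and 22.7 CPM in HCC827. It was at least 733-fold higher in HCC827, since no count was read in H1975. The antisense gene AQP5-AS1, at least 289-fold higher, overlaps AQP5 in extent. If strand was not used, the counts of AQP5 and AQP5-AS1 may not be separate measurements. Read in H1975 were COL1A2, PSG4 and the CT45 genes (above), CYP27C1 (log2 fold -8.22 ± 0.25), a retinol desaturase, LINC01511 (log2 fold -8.85 ± 0.22), ENSG00000268416 (at least 349.7-fold lower) and VN2R19P, a vomeronasal receptor pseudogene (a count ratio of 1145 with an exact interval of 205 to 45258). CA9, the hypoxia-inducible carbonic anhydrase, likewise picked after its values were seen, had 12.3, 12.2 and 12.6 CPM in H1975 and 0.0288, 0 and 0 CPM in HCC827.

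Because such genes turn on the presence of any transcript, the 250 bases upstream of the annotated start are shown for 4 of them, 2 read in each line, from RefSeq (GRCh38.p14), 5′ to 3′, with CG dinucleotides, the sites of DNA methylation, in capitals. They are BEX3 (chrX:103376073-103376322, plus strand), AQP5 (chr12:49961622-49961871, plus strand), PSG4 (chr19:43205639-43205888, minus strand) and CA9 (chr9:35673678-35673927, plus strand).
BEX3: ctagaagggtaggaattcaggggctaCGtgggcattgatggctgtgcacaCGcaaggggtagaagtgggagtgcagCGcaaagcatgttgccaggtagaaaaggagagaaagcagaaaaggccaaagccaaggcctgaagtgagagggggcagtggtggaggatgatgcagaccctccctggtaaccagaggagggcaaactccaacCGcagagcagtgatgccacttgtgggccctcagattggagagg
AQP5: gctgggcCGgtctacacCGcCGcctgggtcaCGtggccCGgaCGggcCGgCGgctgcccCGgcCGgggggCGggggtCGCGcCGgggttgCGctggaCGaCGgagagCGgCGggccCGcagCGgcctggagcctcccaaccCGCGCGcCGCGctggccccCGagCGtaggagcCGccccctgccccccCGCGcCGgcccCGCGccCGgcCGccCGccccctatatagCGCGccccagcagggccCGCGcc
PSG4: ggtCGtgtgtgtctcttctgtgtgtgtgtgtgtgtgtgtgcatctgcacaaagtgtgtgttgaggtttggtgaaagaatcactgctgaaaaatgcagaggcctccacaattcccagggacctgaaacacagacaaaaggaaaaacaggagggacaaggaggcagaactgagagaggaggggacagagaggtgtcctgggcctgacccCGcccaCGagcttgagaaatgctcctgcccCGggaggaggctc
CA9: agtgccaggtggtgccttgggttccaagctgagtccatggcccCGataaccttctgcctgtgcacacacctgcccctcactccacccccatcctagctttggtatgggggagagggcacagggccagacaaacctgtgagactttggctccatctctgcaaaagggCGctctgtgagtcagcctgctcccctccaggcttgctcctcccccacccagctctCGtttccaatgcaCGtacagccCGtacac

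AQP5 holds 41 CG in this stretch, against 4 in BEX3, 4 in PSG4 and 5 in CA9. Over windows of 300 bases (250 before and 50 after the start), the 27195 RefSeq promoters had a median of 14 CG, and those of 9486 protein-coding genes with a mean of 5 CPM or more here had a median of 26. Promoters were found for 17 of the 30 protein-coding genes read in HCC827 only, with a median of 18 CG, and for 9 of the 22 read in H1975 only, with a median of 8. The letters TATAAA, on either strand, were in 2 of the 17 (11.8%) and 2 of the 9 (22.2%), beside 12.0% of all promoters and 5.23% of those of expressed genes. These counts describe the windows and say nothing of methylation, which was not measured. The RefSeq start of PSG4 lies inside the extent that GENCODE gives the gene.

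The fold between the lines moved with transcript GC content. Over 11957 genes the correlation of log2 fold with GC was 0.287, which is across genes and not across samples. Of 10 equal bins, the one lowest in GC (29.2% to 38.2%) had 235 higher and 734 lower of 1196 and a median log2 fold of -0.44, whereas the highest bin (61.3% to 76.0%) had 834 higher and 176 lower and a median of 0.73. Short transcripts leaned the same way as GC-rich ones, with medians of 0.46 in the shortest of 10 bins and -0.38 in the longest. A correction that removes each library's trend with GC content and length, chosen after seeing the data, brought the GC bins to medians between -0.010 and 0.11. It left 18928 genes called and 6437 past 2-fold. Below, each list's median is followed by its corrected value and by its range over the alternatives, which were other scalings and filters, thinning to the smallest library, a replicate block, the correction and leaving out each library. Folds of single genes are uncorrected unless stated. Trends of the libraries and of the cells cannot be told apart here.

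**Figure D3:**
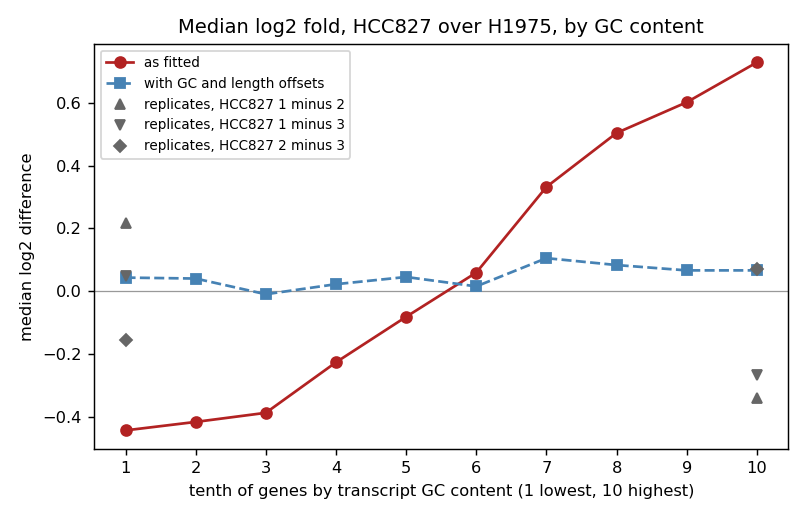
Median log2 fold (y axis, HCC827 over H1975) of genes in 10 bins of transcript GC content (x axis), as fitted and after the correction, with differences between HCC827 replicates in grey. The measured medians climb from -0.44 to 0.73, and the corrected ones stay between -0.010 and 0.11.

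Matrix genes were mostly lower in HCC827. Of the 34 collagen genes tested (44 listed), 7 were higher and 20 were lower in HCC827, 4 and 17 of them past 2-fold, for a median of -1.59 (-1.67 corrected, range -2.24 to -1.36). COL5A1, a chain that starts collagen fibrils, had 267, 249 and 255 CPM in H1975 and 1.15, 1.28 and 0.778 CPM in HCC827 (log2 fold -7.97 ± 0.16, adjusted p = 2.06e-13). COL1A1, the partner of COL1A2 in type I collagen, had 312, 288 and 279 CPM in H1975 and 12.6, 15.6 and 10.3 CPM in HCC827 (log2 fold -4.55 ± 0.14, adjusted p = 4.13e-12). COL7A1, the anchoring fibril collagen, was at 114 ± 3.77 CPM in H1975 and 0.609 ± 0.283 CPM in HCC827 (log2 fold -7.79 ± 0.17). The basement membrane chain COL4A2 went the other way, with 0.217, 0.305 and 0.0797 CPM in H1975 and 48.7, 55.0 and 45.6 CPM in HCC827 (log2 fold 7.87 ± 0.20, adjusted p = 8.21e-13). The libraries of the lines stood apart for each of these 4 genes. The enzymes that modify collagen had 4 higher and 15 lower members among 21 tested, 3 and 8 of them past 2-fold, with a median log2 fold of -0.65 (-1.0 corrected, range -1.01 to -0.55). LOX, which crosslinks collagen and elastin, was lower (log2 fold -6.79 ± 0.14), as were the prolyl hydroxylases P3H3 (log2 fold -4.07 ± 0.17) and P3H2 (log2 fold -3.10 ± 0.11), LOXL4 (log2 fold -4.25 ± 0.25) and the lysyl hydroxylase PLOD2, at 270.4 ± 6.44 CPM in H1975 and 42.4 ± 4.36 CPM in HCC827 (log2 fold -2.66 ± 0.11). Among laminin genes (12 tested), 5 were higher and 5 lower, with 4 and 2 past 2-fold. At the median the log2 fold was -0.07 (0.11 corrected, range -0.42 to 0.19). LAMB1 (log2 fold 2.80 ± 0.12), LAMA5 (log2 fold 1.72 ± 0.10) and LAMC3 (log2 fold 5.25 ± 0.26) were higher and LAMA1 (log2 fold -2.48 ± 0.25) and LAMB3 (log2 fold -0.83 ± 0.10), the most counted of them, lower.

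Of the 24 integrin genes tested (26 listed), 6 were higher and 13 were lower in HCC827, 2 and 6 of them past 2-fold, and the median was -0.78 (-0.66 corrected, range -1.13 to -0.64). Integrins are the receptors for matrix: ITGB3, which pairs in the vitronectin receptor, had 51.9, 50.9 and 48.9 CPM in H1975 and 2.25, 1.87 and 1.62 CPM in HCC827 (log2 fold -4.70 ± 0.13, adjusted p = 1.59e-12), and the lines did not overlap. ITGA11, a collagen receptor, and ITGA9 were lower too (log2 fold -4.68 ± 0.36 and log2 fold -3.83 ± 0.36), while ITGB2, best known from leukocytes, was higher (log2 fold 3.12 ± 0.10). ITGA3, the integrin with the most counts, was called higher (log2 fold 0.39 ± 0.12), but the corrected value was -0.10. Among matrix metalloproteinases and ADAMTS proteases (30 tested of 42 listed), 7 were higher and 18 lower, with 5 and 14 past 2-fold. Across the list the median log2 fold was -1.28 (-1.23 corrected, range -2.16 to -0.98). MMP14, a membrane-bound collagenase, had 192, 173 and 183 CPM in H1975 and 0.461, 0.699 and 0.44 CPM in HCC827 (log2 fold -8.55 ± 0.16, adjusted p = 1.60e-13), with no overlap. The secreted MMP1 (log2 fold -5.99 ± 0.28), MMP10 (log2 fold -4.98 ± 0.27) and ADAMTS2 (a count ratio of 38.5 with an exact interval of 10.4 to 321), which trims procollagen, were low in both lines and lower in HCC827.

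For protease inhibitors of the TIMP, serpin and Kunitz kinds the counts were 9 higher and 20 lower of 33 tested (52 listed), 4 and 16 past 2-fold. These genes had a median of -1.29 (-1.19 corrected, range -1.64 to -1.15). The granzyme B inhibitor SERPINB9 (a count ratio of 224 with an exact interval of 61.7 to 1851) and the squamous antigens SERPINB4 (log2 fold -7.37 ± 0.28) and SERPINB3 (log2 fold -7.15 ± 0.29) were lower. SPINT1, an epithelial inhibitor of hepatocyte growth factor activation, was higher (log2 fold 1.41 ± 0.12). Of the 19 proteoglycans tested (22 listed), 1 was higher and 13 were lower in HCC827, 0 and 6 of them past 2-fold, at a median of -0.57 (-0.95 corrected, range -0.95 to -0.52). VCAN, versican, had 600.5 ± 10.3 CPM in H1975 and 94.5 ± 0.207 CPM in HCC827 (log2 fold -2.67 ± 0.10), SPOCK1 134 ± 3.77 CPM in H1975 and 12.2 ± 1.19 CPM in HCC827 (log2 fold -3.45 ± 0.11), GPC4 was lower (log2 fold -6.09 ± 0.20) and SRGN was at least 87.3-fold lower. AGRN had a measured log2 fold of 0.22 and a corrected one of -0.29. The fibroblast markers share COL1A1 and COL1A2 with the collagen list, so they are not a separate observation for these genes. The 4 tested of 10, COL1A1, COL1A2, PDGFRB and FAP, were all lower. The summed level of the list was 349.6 to 391.2 CPM in H1975 and 10.4 to 16.1 CPM in HCC827. Most of this sum came from COL1A1 and COL1A2. The markers DCN, LUM, COL3A1, POSTN, THY1 and PDGFRA had at most 13 counts in any library. Fewer cells of a type and less RNA per cell cannot be told apart in bulk RNA.

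Cell contact genes split by family. Among keratins (22 tested of 55 listed), 16 were higher and 3 lower, with 12 and 2 past 2-fold. A median of 1.58 (1.02 corrected, range 1.02 to 1.74) was found. KRT7, KRT18 and KRT19, the keratins of simple epithelium, stood at 1436 ± 52.2 CPM in H1975 and 4135 ± 912 CPM in HCC827 for KRT7, and KRT18 and KRT19 were higher by log2 folds of 2.58 ± 0.16 and 2.32 ± 0.17. After GC correction the 3 log2 folds were 0.78, 2.06 and 1.58. KRT3 (log2 fold 4.0 ± 0.35) and KRT78 (log2 fold 3.44 ± 0.46), keratins of cornea and stratified epithelium, were low but higher in HCC827. Of the 16 claudins tested (24 listed), 6 were higher and 8 were lower in HCC827, 4 and 4 of them past 2-fold. The middle log2 fold was -0.01 (-0.03 corrected, range -0.48 to 0.36). CLDN4, which like other claudins seals tight junctions, had 225, 206 and 228 CPM in H1975 and 518, 632 and 699 CPM in HCC827 (log2 fold 1.49 ± 0.12, adjusted p = 4.94e-08), CLDN3 was higher (log2 fold 3.57 ± 0.14), as was CLDN7 (log2 fold 1.71 ± 0.11), and CLDN11 (log2 fold -4.46 ± 0.39) and CLDN14 (log2 fold -3.37 ± 0.17) were lower. The claudin list had no common direction, and its median was 0.36 with a filter of 1 CPM in 3 libraries, -0.36 under scaling by totals alone and -0.48 without HCC827 replicate 1. Desmosome genes had 5 higher and 2 lower members among 9 tested (13 listed), 3 and 1 of them past 2-fold. Their median log2 fold was 0.47 (0.59 corrected, range 0.12 to 0.59). Of these, JUP, plakoglobin, was higher (log2 fold 1.45 ± 0.12) and DSP, desmoplakin, lower (log2 fold -1.32 ± 0.12), and DSG1 (a count ratio of 115 with an exact interval of 31.2 to 959) and DSC3 (log2 fold 3.85 ± 0.21) had low counts and were higher in HCC827.

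For the gap junction connexins the counts were 7 higher and 2 lower of 12 tested (21 listed), 5 and 1 past 2-fold, for a median of 0.57 (0.42 corrected, range 0.22 to 1.30). GJA1, the most widespread connexin, had 91.2, 86.9 and 92.9 CPM in H1975 and 9.9, 6.76 and 7.68 CPM in HCC827 (log2 fold -3.43 ± 0.13, adjusted p = 1.93e-11). It was the lower one beside GJB2 (log2 fold 1.85 ± 0.13), GJD3 (log2 fold 1.59 ± 0.15) and GJB1 (a count ratio of 72.1 with an exact interval of 24.1 to 354), which were higher. Among cadherins outside the clusters (24 tested of 37 listed), 5 were higher and 8 lower, with 2 and 6 past 2-fold, with a median log2 fold of -0.37 (-0.19 corrected, range -0.71 to -0.07). CDH1, E-cadherin, had 315, 296 and 301 CPM in H1975 and 530.2, 482 and 475 CPM in HCC827 (log2 fold 0.71 ± 0.10, adjusted p = 1.25e-05), whereas CDH11, a cadherin of mesenchymal cells, was lower (log2 fold -5.45 ± 0.22), and FAT2 (log2 fold -2.55 ± 0.13) and CELSR2 (log2 fold -1.61 ± 0.11) were lower as well. CDH4 was higher (log2 fold 1.85 ± 0.28). Of the 52 clustered protocadherins tested (53 listed), 1 was higher and 38 were lower in HCC827, 0 and 28 of them past 2-fold. At the median the log2 fold was -1.23 (-1.45 corrected, range -1.59 to -1.17). The beta cluster held 12 lower and 1 higher of 15 (median -1.60, -1.63 corrected), the gamma cluster 22 lower of 22 (median -1.41, -1.68 corrected), and the alpha cluster 4 lower of 15 (median -0.019, 0.067 corrected). PCDHB5 had 10.9, 10.6 and 10.9 CPM in H1975 and 0.0288, 0.117 and 0.0338 CPM in HCC827 (a count ratio of 262 with an exact interval of 89.6 to 1273, adjusted p = 7.61e-12), and PCDHB15 (log2 fold -3.76 ± 0.18), PCDHB16 (log2 fold -2.22 ± 0.19) and PCDHB7 (log2 fold -1.97 ± 0.26) were lower. The gamma and alpha members share exons at their 3′ ends, so PCDHGA1, at 221 ± 11.8 CPM in H1975 and 78.1 ± 4.94 CPM in HCC827, and its neighbours are not separate measurements. The S100 and annexin genes had 9 higher and 9 lower members among 25 tested (33 listed), 5 and 5 of them past 2-fold, and the median was -0.10 (-0.28 corrected, range -0.46 to -0.04). S100A2 had 100.3 ± 9.27 CPM in H1975 and 10.7 ± 0.663 CPM in HCC827 (log2 fold -3.24 ± 0.11), S100P was higher (log2 fold 3.44 ± 0.21), and ANXA1, the most counted, had a log2 fold of 0.01 ± 0.12, which did not pass the test. ANXA6 (log2 fold -2.70 ± 0.17) and S100A3 (log2 fold -3.01 ± 0.31) were lower.

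Receptor and ligand families each had members in both directions. Of the 29 receptor tyrosine kinases tested (41 listed), 12 were higher and 13 were lower in HCC827, 3 and 8 of them past 2-fold. Across the list the median log2 fold was -0.01 (0.02 corrected, range -0.37 to 0.33). EGFR, the driver of both lines, had 361, 377 and 406 CPM in H1975 and 3811, 3273 and 2802 CPM in HCC827 (log2 fold 3.11 ± 0.13, adjusted p = 6.36e-11), and the lines did not overlap. AXL, a receptor for GAS6 known from resistance to EGFR inhibitors, had 44.3, 44.5 and 39.0 CPM in H1975 and 7.26, 7.69 and 5.11 CPM in HCC827 (log2 fold -2.71 ± 0.14, adjusted p = 4.79e-10), the other way round. ROS1 (log2 fold -2.56 ± 0.13) and PDGFRB (log2 fold -5.08 ± 0.44) were lower too. The receptor kinase median was 0.33 with a filter of 1 CPM in 3 libraries and -0.37 under scaling by totals alone. Among ephrins and Eph receptors (21 tested of 22 listed), 8 were higher and 6 lower, with 1 and 2 past 2-fold. These genes had a median of 0.10 (-0.48 corrected, range -0.48 to 0.10). EPHB6, a receptor without kinase activity, was at least 80.4-fold lower, EPHA7 was higher (log2 fold 3.69 ± 0.44) and EPHA4 (log2 fold -1.26 ± 0.15) and EPHB4 (log2 fold -0.29 ± 0.10) lower. This list's median changed sign with the correction and was -0.26 under scaling by totals alone. For semaphorins, plexins and neuropilins the counts were 10 higher and 16 lower of 31 tested, 5 and 5 past 2-fold, at a median of -0.34 (-0.57 corrected, range -0.69 to -0.26). SEMA3C, a secreted guidance cue, had 189 ± 10.9 CPM in H1975 and 22.8 ± 3.13 CPM in HCC827 (log2 fold -3.03 ± 0.12), SEMA5A (log2 fold -5.26 ± 0.20) and PLXNA4 (log2 fold -5.91 ± 0.27) were lower, and SEMA4A (log2 fold 2.46 ± 0.15) was higher.

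Of the 43 TGF-beta and BMP pathway genes tested (46 listed), 11 were higher and 23 were lower in HCC827, 6 and 10 of them past 2-fold. A median of -0.33 (-0.03 corrected, range -0.69 to -0.03) was found. LTBP1, which stores latent TGF-beta in matrix, had 67.2, 55.9 and 59.6 CPM in H1975 and 2.94, 4.55 and 4.03 CPM in HCC827 (log2 fold -4.06 ± 0.15, adjusted p = 1.46e-11). The BMP antagonist NOG was lower (log2 fold -5.24 ± 0.24), and the activin subunit INHBB (log2 fold 5.21 ± 0.20) and the BMP target ID2 (log2 fold 2.67 ± 0.12) were higher. Among WNT ligands, Frizzled receptors and antagonists (37 tested of 52 listed), 15 were higher and 15 lower, with 7 and 7 past 2-fold. The middle log2 fold was -0.15 (-0.06 corrected, range -0.51 to -0.06). The ligand WNT9A had 69.7, 64.7 and 69.7 CPM in H1975 and 0.979, 0.816 and 1.08 CPM in HCC827 (log2 fold -6.08 ± 0.14, adjusted p = 4.60e-13) and the antagonist SFRP4 was lower (log2 fold -6.0 ± 0.14), while WNT7A (log2 fold 4.41 ± 0.29) and WNT8B (log2 fold 4.22 ± 0.44) had low counts and were higher in HCC827. LRP5, a WNT co-receptor, was higher (log2 fold 0.70 ± 0.09). For Notch pathway genes the counts were 8 higher and 9 lower of 22 tested (24 listed), 2 and 4 past 2-fold. Their median log2 fold was 0.03 (-0.34 corrected, range -0.34 to 0.06). The ligand JAG1 had 159.6 ± 6.78 CPM in H1975 and 23.3 ± 2.6 CPM in HCC827 (log2 fold -2.76 ± 0.11), the Hes and Hey family genes HES2 (log2 fold -5.72 ± 0.27) and HEYL (log2 fold -4.17 ± 0.33) were lower, and the receptor NOTCH2 (log2 fold 0.83 ± 0.11) and the glycosyltransferase RFNG (log2 fold 2.25 ± 0.13) were higher. The Notch median was -0.33 under scaling by totals alone.

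**Figure D4:**
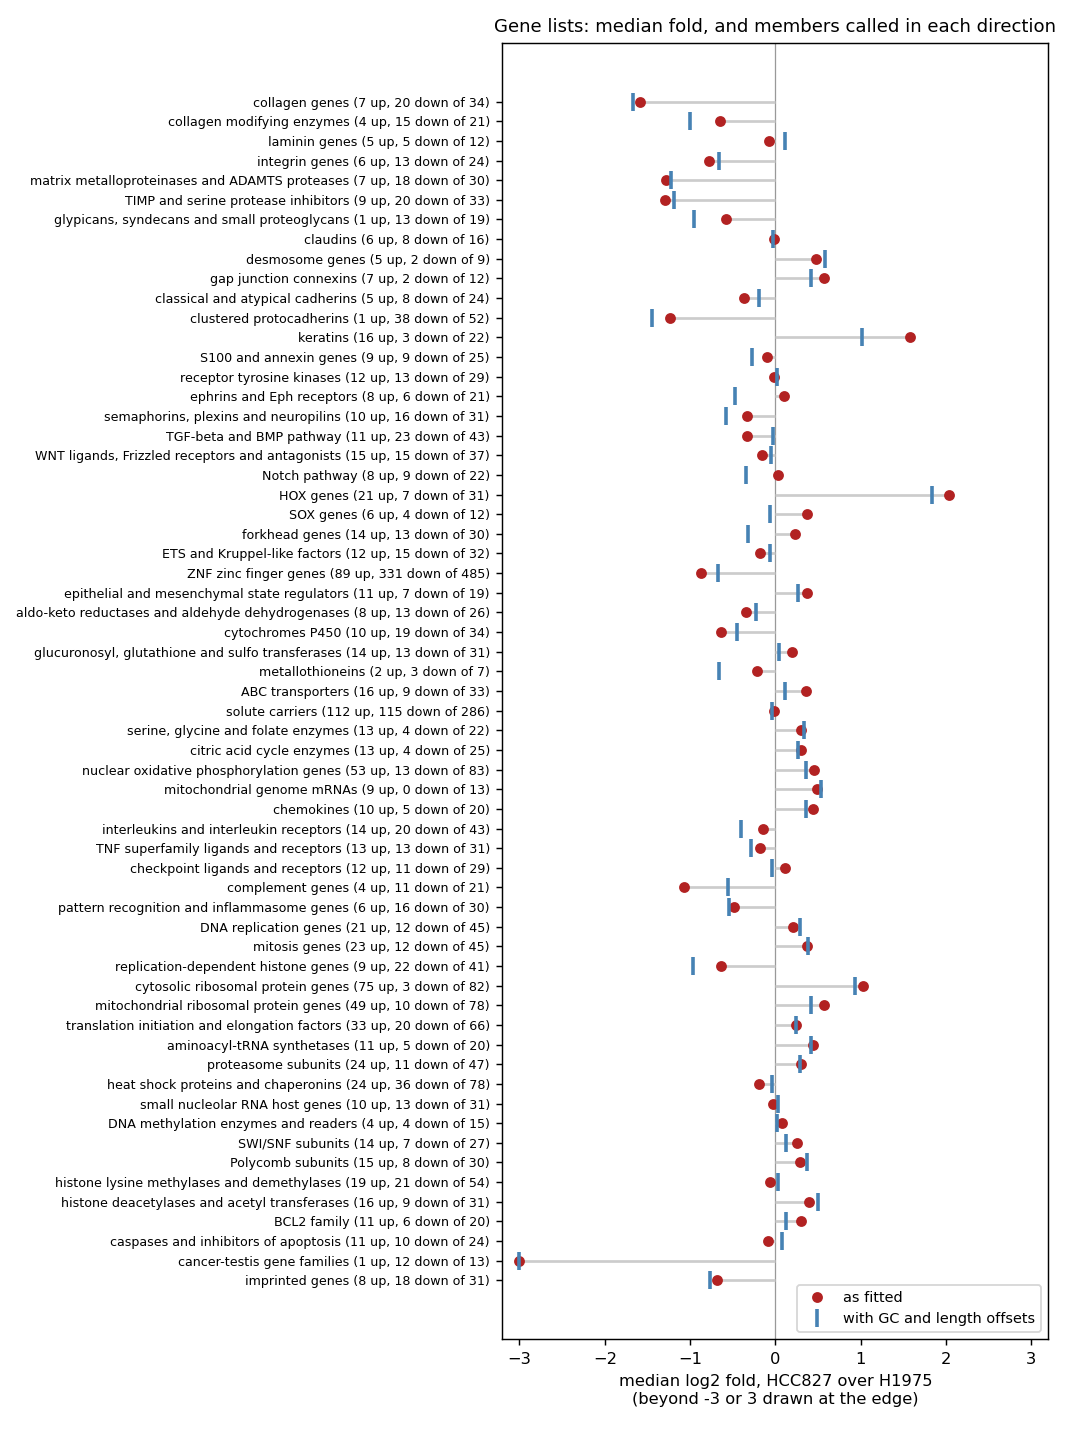
Median log2 fold (x axis, HCC827 over H1975) of the gene lists (rows), with a circle for the value as fitted, a tick for the corrected value and the counts of called members beside each name. The medians of ribosomal protein, HOX and keratin genes lie right of 0, and those of collagens, protocadherins and zinc finger genes left of it.

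HOX genes were mostly higher in HCC827. Of the 31 HOX genes tested (39 listed), 21 were higher and 7 were lower in HCC827, 18 and 2 of them past 2-fold, for a median of 2.03 (1.84 corrected, range 1.69 to 3.53). The clusters differed: all 8 tested HOXB genes were higher past 2-fold (median 7.29, 6.84 corrected), 7 HOXA genes were higher and 1 lower of 10 (median 1.61, 1.25 corrected), HOXC had 4 in each direction of 8 (median 0.16, -0.23 corrected), and HOXD 2 in each of 5 (median -1.05, -1.38 corrected). The median of all HOX genes was 3.53 with a filter of 1 CPM in 3 libraries and 3.41 when thinned, both of which test fewer low genes. HOXB2 had 0.0241, 0 and 0.0266 CPM in H1975 and 8.03, 8.04 and 10.8 CPM in HCC827 (a count ratio of 571 with an exact interval of 158 to 4728, adjusted p = 2.60e-11), HOXB6 had a count ratio of 447 with an exact interval of 152 to 2173, and HOXB13, known from prostate and hindgut, had a count ratio of 487 with an exact interval of 86.8 to 19313. HOXC11 was at least 254-fold higher and HOXC10 was at 1.78 ± 0.307 CPM in H1975 and 28.8 ± 3.8 CPM in HCC827 (log2 fold 4.0 ± 0.15), whereas HOXD4 was at least 41.9-fold lower in HCC827. Only a trace or no count was read in the low line for HOXB2, HOXC11 and HOXD4.

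Zinc finger genes leaned the other way. Among genes named ZNF (485 tested of 508 listed), 89 were higher and 331 lower, with 22 and 192 past 2-fold, with a median log2 fold of -0.87 (-0.68 corrected, range -1.21 to -0.68). On chromosome 19, where most KRAB zinc finger genes stand in clusters, 207 of 242 were lower and 21 higher, 153 and 8 of them past 2-fold, with a median of -1.56 (-1.30 corrected). On the other chromosomes 124 of 243 were lower and 68 higher, with a median of -0.34 (-0.20 corrected). ZNF432 had 245, 271 and 255 CPM in H1975 and 12.6, 11.0 and 9.07 CPM in HCC827 (log2 fold -4.56 ± 0.13, adjusted p = 2.26e-12). ZNF714 was lower (log2 fold -5.95 ± 0.14), and ZNF334 on chromosome 20 was at least 110.0-fold lower. No HCC827 library reached the level of an H1975 library for these genes.

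Other transcription factor families were mixed. Of the 12 SOX genes tested (19 listed), 6 were higher and 4 were lower in HCC827, 2 and 3 of them past 2-fold. At the median the log2 fold was 0.37 (-0.07 corrected, range -0.07 to 0.50). SOX2, a factor of airway progenitors, had 11.4, 9.7 and 9.33 CPM in H1975 and 65.2, 62.0 and 63.3 CPM in HCC827 (log2 fold 2.65 ± 0.10, adjusted p = 3.49e-11), and SOX4 was higher (log2 fold 1.30 ± 0.13), but SOX9 had 43.3 ± 4.9 CPM in H1975 and 5.42 ± 0.842 CPM in HCC827 (log2 fold -2.96 ± 0.13) and SOX30 was lower (log2 fold -4.88 ± 0.20). Forkhead genes had 14 higher and 13 lower members among 30 tested (45 listed), 6 and 6 of them past 2-fold, and the median was 0.23 (-0.33 corrected, range -0.33 to 0.44). FOXA1, a pioneer factor of lung and other endoderm, had 2.41, 2.55 and 2.44 CPM in H1975 and 64.3, 51.6 and 63.2 CPM in HCC827 (log2 fold 4.60 ± 0.12, adjusted p = 1.02e-12). FOXD1 (log2 fold 4.82 ± 0.20) and FOXO6 (log2 fold 3.42 ± 0.15) were higher and FOXI3 lower (a count ratio of 111 with an exact interval of 19.7 to 4419.7). The forkhead median was -0.12 under scaling by totals alone. Among ETS and Kruppel-like factors (32 tested of 38 listed), 12 were higher and 15 lower, with 5 and 5 past 2-fold. Across the list the median log2 fold was -0.18 (-0.06 corrected, range -0.53 to -0.06). SPDEF, a factor of mucus-secreting cells, had 0.121, 0.109 and 0 CPM in H1975 and 22.4, 28.4 and 34.2 CPM in HCC827 (log2 fold 8.40 ± 0.31, adjusted p = 1.62e-11), and the epithelial ELF3 was higher (log2 fold 4.38 ± 0.15). KLF12 (log2 fold -6.91 ± 0.31) and ETV7 (log2 fold -2.20 ± 0.23) were lower. For regulators of epithelial and mesenchymal state the counts were 11 higher and 7 lower of 19 tested (20 listed), 5 and 7 past 2-fold. These genes had a median of 0.37 (0.26 corrected, range 0.02 to 0.49). SNAI1, a repressor of CDH1, had 23.6, 22.2 and 24.3 CPM in H1975 and 1.9, 2.1 and 2.13 CPM in HCC827 (log2 fold -3.53 ± 0.13, adjusted p = 1.41e-11), whereas TWIST2 had 0.0724, 0.087 and 0 CPM in H1975 and 11.4, 18.4 and 14.5 CPM in HCC827 (log2 fold 7.91 ± 0.33, adjusted p = 6.36e-11). These mesenchymal regulators thus stood on opposite sides, and TFCP2L1, an epithelial factor, was lower (log2 fold -3.77 ± 0.21).

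Metabolic families differed in direction. Of the 83 nuclear genes of oxidative phosphorylation tested (87 listed), 53 were higher and 13 were lower in HCC827, 9 and 2 of them past 2-fold, at a median of 0.45 (0.36 corrected, range 0.09 to 0.52). NDUFA9, a complex I subunit, had 26.5, 26.8 and 26.8 CPM in H1975 and 95.7, 139 and 129 CPM in HCC827 (log2 fold 2.18 ± 0.13, adjusted p = 1.99e-09), with no overlap, and the complex IV subunit COX5B (log2 fold 1.56 ± 0.14) and CYC1 (log2 fold 1.53 ± 0.12) were higher. UQCRHL was higher as well (log2 fold 1.60 ± 0.09), as was ATP5F1B (log2 fold 0.45 ± 0.11). The mRNAs of the mitochondrial genome had 9 higher and 0 lower members among 13 tested, 2 and 0 of them past 2-fold. A median of 0.49 (0.54 corrected, range 0.13 to 0.59) was found. MT-ND3 had 788, 734 and 793 CPM in H1975 and 2379, 2542 and 3728 CPM in HCC827 (log2 fold 1.90 ± 0.15, adjusted p = 4.88e-08), MT-ND1 was higher (log2 fold 0.91 ± 0.11), and MT-CO1 had a log2 fold of 0.48 ± 0.13. Together these mRNAs took 5.89% ± 0.0890 of all counts in H1975 and 6.76% ± 0.178 in HCC827 (SD, n = 3 each, exact permutation p = 0.1, the smallest that 3 against 3 allow). For citric acid cycle enzymes the counts were 13 higher and 4 lower of 25 tested, 1 and 1 past 2-fold. The middle log2 fold was 0.30 (0.26 corrected, range -0.07 to 0.42). IDH3G (log2 fold 1.92 ± 0.13), ACO1 (log2 fold 1.10 ± 0.09) and MDH2 (log2 fold 1.04 ± 0.13) were higher and PC (log2 fold -1.31 ± 0.12), pyruvate carboxylase, and IDH3A (log2 fold -1.14 ± 0.10) lower. For these enzymes the median was -0.065 under scaling by totals alone and 0.19 without HCC827 replicate 3.

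Of the 22 enzymes of serine, glycine and folate metabolism tested, 13 were higher and 4 were lower in HCC827, 4 and 2 of them past 2-fold. Their median log2 fold was 0.29 (0.33 corrected, range -0.06 to 0.33). CTH, which makes cysteine, had 8.91, 9.77 and 10.9 CPM in H1975 and 51.3, 53.7 and 51.2 CPM in HCC827 (log2 fold 2.40 ± 0.10, adjusted p = 8.33e-11), and CBS (log2 fold 1.49 ± 0.10) and the mitochondrial SHMT2 (log2 fold 1.05 ± 0.12) were higher, but ALDH1L2, a mitochondrial folate enzyme, had 55.8 ± 2.13 CPM in H1975 and 4.61 ± 0.594 CPM in HCC827 (log2 fold -3.57 ± 0.12). Under scaling by totals alone this median was -0.058. Among aldo-keto reductases and aldehyde dehydrogenases (26 tested of 31 listed), 8 were higher and 13 lower, with 3 and 8 past 2-fold, for a median of -0.34 (-0.23 corrected, range -0.70 to -0.23). ALDH1A3, which makes retinoic acid, had 18.9, 16.5 and 15.9 CPM in H1975 and 235, 199.8 and 219 CPM in HCC827 (log2 fold 3.67 ± 0.11, adjusted p = 3.50e-12), and AKR1C2 (log2 fold -3.57 ± 0.23), AKR1B15 (log2 fold -3.99 ± 0.26) and ALDH1L1 (log2 fold -4.11 ± 0.39) were lower. ALDH3B1 was higher (log2 fold 1.16 ± 0.11). For cytochromes P450 the counts were 10 higher and 19 lower of 34 tested (56 listed), 9 and 12 past 2-fold, with a median log2 fold of -0.63 (-0.45 corrected, range -0.97 to -0.45). The sterol enzyme CYP51A1 was lower (log2 fold -0.73 ± 0.12). CYP26A1, which breaks down retinoic acid (a count ratio of 75.5 with an exact interval of 25.3 to 371), and CYP4F11 (a count ratio of 153 with an exact interval of 26.7 to 6098) had low counts and were higher in HCC827.

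Of the 31 conjugating transferases tested (52 listed), 14 were higher and 13 were lower in HCC827, 6 and 9 of them past 2-fold. At the median the log2 fold was 0.19 (0.05 corrected, range -0.17 to 0.31). GSTT2 was at least 207-fold lower, and its near-identical copy GSTT2B leaves its count uncertain. GSTT2B was also read in H1975 only, with 886 counts there and 1 count in HCC827. GSTP1 had 242, 224 and 238 CPM in H1975 and 466, 598 and 681 CPM in HCC827 (log2 fold 1.31 ± 0.13, adjusted p = 4.18e-07). UGT1A6, UGT1A7 and UGT1A9, which share exons, had log2 folds of -2.63 to -2.82. The transferase median was -0.17 under scaling by totals alone. Metallothioneins had 2 higher and 3 lower members among 7 tested (11 listed), 0 and 2 of them past 2-fold, and the median was -0.22 (-0.66 corrected, range -0.66 to -0.10). Beside MT1E, MT1X was lower (log2 fold -0.66 ± 0.10) and MT2A, the most counted, had 391 ± 11.5 CPM in H1975 and 335 ± 50.3 CPM in HCC827 (log2 fold -0.22 ± 0.11), while MT1F (log2 fold 1.01 ± 0.13) and MT1A (log2 fold 0.99 ± 0.15) were higher. Among ABC transporters (33 tested of 45 listed), 16 were higher and 9 lower, with 6 and 1 past 2-fold. Across the list the median log2 fold was 0.36 (0.11 corrected, range -0.003 to 0.36). ABCC2, an exporter of conjugates, had 1.81, 1.57 and 1.62 CPM in H1975 and 69.9, 59.8 and 64.6 CPM in HCC827 (log2 fold 5.28 ± 0.12, adjusted p = 5.19e-13) and ABCC3, its relative, 84.8 ± 4.65 CPM in H1975 and 374 ± 46.1 CPM in HCC827 (log2 fold 2.14 ± 0.11). The cholesterol exporter ABCA1 was lower (log2 fold -2.21 ± 0.12) and ABCA4 higher (log2 fold 3.37 ± 0.23). The median of this list was -0.003 under scaling by totals alone, 0.028 when thinned and 0.10 with a filter of 1 CPM in 3 libraries. For solute carriers the counts were 112 higher and 115 lower of 286 tested (378 listed), 48 and 42 past 2-fold. These genes had a median of -0.01 (-0.04 corrected, range -0.36 to 0.03). SLC7A5, the large amino acid importer, had 492 ± 22.2 CPM in H1975 and 919 ± 76.2 CPM in HCC827 (log2 fold 0.90 ± 0.10), and the glutamate transporter SLC1A1 (log2 fold 6.03 ± 0.28) and the GABA transporter SLC6A11 (log2 fold 6.74 ± 0.31) were higher. SLC24A4, a sodium and calcium exchanger, was lower (log2 fold -7.65 ± 0.25), and SLC17A9 was at least 24.5-fold lower.

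Complement genes and innate sensors were more often lower in HCC827. Of the 21 complement genes tested (26 listed), 4 were higher and 11 were lower in HCC827, 1 and 9 of them past 2-fold, at a median of -1.07 (-0.55 corrected, range -1.43 to -0.55). C3, the central component, had 386, 375 and 421 CPM in H1975 and 10.6, 14.7 and 17.3 CPM in HCC827 (log2 fold -4.81 ± 0.17, adjusted p = 9.49e-12), with no overlap. C1R was lower (log2 fold -3.18 ± 0.15), and C4A (log2 fold -5.15 ± 0.17) and its near copy C4B (log2 fold -5.03 ± 0.19) were lower with counts that cannot be separated. Among sensors of pattern recognition and inflammasomes (30 tested of 36 listed), 6 were higher and 16 lower, with 1 and 12 past 2-fold. A median of -0.48 (-0.55 corrected, range -0.82 to -0.41) was found. IFI16, a DNA sensor, had 386, 385 and 409 CPM in H1975 and 85.7, 85.9 and 96.4 CPM in HCC827 (log2 fold -2.14 ± 0.10, adjusted p = 1.95e-10), and AIM2, another (log2 fold -4.63 ± 0.15), NLRP1 (log2 fold -3.71 ± 0.20), TLR2 (a count ratio of 41.0 with an exact interval of 13.8 to 200.4) and the adaptor PYCARD (a count ratio of 162 with an exact interval of 28.8 to 6422) were lower. Every H1975 library exceeded every HCC827 library for IFI16. For chemokines the counts were 10 higher and 5 lower of 20 tested (43 listed), 5 and 2 past 2-fold. The middle log2 fold was 0.44 (0.36 corrected, range 0.10 to 0.65). CXCL5, a neutrophil attractant, had 2.44, 2.59 and 2.79 CPM in H1975 and 34.1, 29.4 and 42.6 CPM in HCC827 (log2 fold 3.78 ± 0.15, adjusted p = 2.83e-11), whereas CCL2 was lower (a count ratio of 204 with an exact interval of 56.2 to 1685). XCL1 (log2 fold 5.49 ± 0.41) and XCL2 (log2 fold 4.46 ± 0.41), near-identical, had low counts and were higher, and CX3CL1, the most counted, had a log2 fold of 0.31 ± 0.11 (0.03 corrected). Without HCC827 replicate 3 the chemokine median was 0.28.

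Of the 43 interleukins and their receptors tested (75 listed), 14 were higher and 20 were lower in HCC827, 9 and 14 of them past 2-fold. Their median log2 fold was -0.14 (-0.41 corrected, range -0.49 to -0.09). IL1RAP, a shared receptor chain, had 73.2, 74.0 and 75.7 CPM in H1975 and 10.7, 9.68 and 8.49 CPM in HCC827 (log2 fold -2.95 ± 0.11, adjusted p = 1.98e-11). IL11 (log2 fold -4.36 ± 0.17) and the IL33 receptor IL1RL1 (log2 fold -5.35 ± 0.32) were lower, and IL37 was higher (a count ratio of 603 with an exact interval of 166 to 4989.7), as was IL6ST (log2 fold 0.46 ± 0.10). Among TNF superfamily members (31 tested of 44 listed), 13 were higher and 13 lower, with 5 and 9 past 2-fold, for a median of -0.18 (-0.29 corrected, range -0.53 to 0.23). LTBR, the lymphotoxin receptor, had 52.1 ± 1.42 CPM in H1975 and 244 ± 30.3 CPM in HCC827 (log2 fold 2.23 ± 0.11), TNFSF15 (log2 fold 4.10 ± 0.15) and TNFRSF25 (log2 fold 2.89 ± 0.15), its receptor, were both higher, CD40 was lower (log2 fold -4.61 ± 0.20) and EDA2R was at least 54.3-fold lower. The TNF superfamily median turned to 0.23 both with a filter of 1 CPM in 3 libraries and when thinned. For checkpoint ligands and receptors the counts were 12 higher and 11 lower of 29 tested (30 listed), 6 and 6 past 2-fold, with a median log2 fold of 0.11 (-0.04 corrected, range -0.24 to 0.14). HHLA2, a B7 family ligand, had 0.0724, 0.109 and 0.106 CPM in H1975 and 47.7, 49.2 and 46.6 CPM in HCC827 (log2 fold 8.90 ± 0.17, adjusted p = 1.60e-13), present in HCC827 and at a trace in H1975. ICOSLG was higher (log2 fold 2.78 ± 0.19), ENTPD1 (log2 fold -2.32 ± 0.14) and NECTIN1 (log2 fold -2.30 ± 0.11) were lower, and NT5E, which makes adenosine, had 216 ± 11.6 CPM in H1975 and 233 ± 30.8 CPM in HCC827 (log2 fold 0.11 ± 0.11, adjusted p = 0.373). The checkpoint median turned to -0.24 under scaling by totals alone.

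Ribosomal protein genes were nearly all higher in HCC827. Of the 82 cytosolic ribosomal protein genes tested (85 listed), 75 were higher and 3 were lower in HCC827, 36 and 0 of them past 2-fold. At the median the log2 fold was 1.03 (0.93 corrected, range 0.67 to 1.07). RPS19 had 112, 109.8 and 116 CPM in H1975 and 601, 753 and 608 CPM in HCC827 (log2 fold 2.54 ± 0.11, adjusted p = 1.40e-10), RPS16 113 ± 1.28 CPM in H1975 and 652 ± 53.7 CPM in HCC827 (log2 fold 2.53 ± 0.10) and RPL28, the most counted, 935 ± 4.52 CPM in H1975 and 2093 ± 318 CPM in HCC827 (log2 fold 1.16 ± 0.12). The 3 lower members were RPL3L, RPL30 and RPL39L, picked out after their values were seen. RPL7 (log2 fold 2.08 ± 0.10) was also higher, but processed copies elsewhere in the genome leave its count uncertain. The share of all counts in these genes was 2.03% ± 0.00489 in H1975 and 3.50% ± 0.127 in HCC827 (exact permutation p = 0.1). Pseudogenes, many of them copies of such genes, took 5.52% ± 0.0409 of counts in H1975 and 7.19% ± 0.0858 in HCC827. Mitochondrial ribosomal protein genes had 49 higher and 10 lower members among 78 tested, 14 and 0 of them past 2-fold, and the median was 0.57 (0.41 corrected, range 0.22 to 0.64). MRPL37 had 39.7 ± 0.784 CPM in H1975 and 274 ± 57.6 CPM in HCC827 (log2 fold 2.78 ± 0.14), and MRPL12 (log2 fold 2.01 ± 0.12), MRPL52 (log2 fold 1.92 ± 0.11) and MRPL2 (log2 fold 1.92 ± 0.14) were higher. Among translation factors (66 tested of 68 listed), 33 were higher and 20 lower, with 10 and 2 past 2-fold. Across the list the median log2 fold was 0.24 (0.24 corrected, range -0.12 to 0.25). EEF1A2, the elongation factor of muscle and nerve, had 233, 214 and 245 CPM in H1975 and 757, 1193 and 1115 CPM in HCC827 (log2 fold 2.15 ± 0.15, adjusted p = 1.37e-08), and EIF3G (log2 fold 1.90 ± 0.13) and EEF1A1 (log2 fold 0.88 ± 0.10) were higher, while EIF4E3 (log2 fold -3.91 ± 0.18) and EIF5A2 (log2 fold -2.88 ± 0.15) were lower. The list's median was -0.12 under scaling by totals alone.

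For the aminoacyl-tRNA synthetases the counts were 11 higher and 5 lower of 20 tested, 2 and 0 past 2-fold. These genes had a median of 0.44 (0.42 corrected, range 0.08 to 0.49). SARS1 (log2 fold 1.86 ± 0.11), VARS1 (log2 fold 1.47 ± 0.15), YARS1 (log2 fold 0.94 ± 0.11), QARS1 (log2 fold 0.88 ± 0.12) and AARS1, at 509 ± 33.3 CPM in H1975 and 912 ± 157 CPM in HCC827 (log2 fold 0.84 ± 0.13), were higher. Of the 47 proteasome subunits tested (48 listed), 24 were higher and 11 were lower in HCC827, 9 and 0 of them past 2-fold, at a median of 0.30 (0.29 corrected, range -0.06 to 0.35). The immunoproteasome subunit PSMB10 (log2 fold 2.42 ± 0.12), the activator PSME1 (log2 fold 1.61 ± 0.11), PSMD8 (log2 fold 2.19 ± 0.14) and PSMB3 (log2 fold 1.93 ± 0.13) were higher. This median was -0.064 under scaling by totals alone and 0.20 without HCC827 replicate 3. Among heat shock proteins and chaperonins (78 tested of 84 listed), 24 were higher and 36 lower, with 8 and 8 past 2-fold. A median of -0.19 (-0.05 corrected, range -0.54 to -0.05) was found. HSPB6, a small heat shock protein of muscle, had 43.9, 39.1 and 41.5 CPM in H1975 and 0.23, 0.35 and 0.203 CPM in HCC827 (log2 fold -7.45 ± 0.18, adjusted p = 5.19e-13), with no overlap, DNAJA4 (log2 fold -4.89 ± 0.18) and HSPA2 (log2 fold -2.88 ± 0.18) were lower and DNAJC12 was higher (log2 fold 3.15 ± 0.18). For small nucleolar RNA host genes the counts were 10 higher and 13 lower of 31 tested (32 listed), 1 and 6 past 2-fold. The middle log2 fold was -0.03 (0.03 corrected, range -0.37 to 0.11). SNHG5 had 94.1 ± 6.49 CPM in H1975 and 11.9 ± 0.665 CPM in HCC827 (log2 fold -2.97 ± 0.10), SNHG14 was lower (log2 fold -1.80 ± 0.12), SNHG18 was at least 64.0-fold lower, and SNHG31 (log2 fold 1.64 ± 0.11) and SNHG29 (log2 fold 0.40 ± 0.10) were higher.

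Mitosis and replication genes had more higher than lower members, with medians that other scalings or depth moved to near 0. Of the 45 mitosis genes tested, 23 were higher and 12 were lower in HCC827, 8 and 0 of them past 2-fold. Their median log2 fold was 0.38 (0.38 corrected, range 0.02 to 0.45). CDC20, which activates the anaphase-promoting complex, had 40.5, 38.1 and 33.4 CPM in H1975 and 222, 372 and 277 CPM in HCC827 (log2 fold 2.96 ± 0.16, adjusted p = 1.08e-09), and the lines did not overlap. KIF2C (log2 fold 2.49 ± 0.11), CDC25C (log2 fold 1.55 ± 0.11), CDC25B (log2 fold 0.88 ± 0.13) and FOXM1, a driver of mitotic transcription (log2 fold 1.46 ± 0.14), were higher. Among DNA replication genes (45 tested), 21 were higher and 12 lower, with 6 and 0 past 2-fold, for a median of 0.21 (0.29 corrected, range -0.14 to 0.29). CDT1, a licensing factor, had 21.5, 18.9 and 20.5 CPM in H1975 and 195, 320.2 and 255 CPM in HCC827 (log2 fold 3.65 ± 0.16, adjusted p = 1.06e-10). ORC1 (log2 fold 2.63 ± 0.17), POLD1 (log2 fold 2.26 ± 0.13), LIG1 (log2 fold 2.05 ± 0.16) and TOP2A (log2 fold 0.89 ± 0.11) were higher. This median was -0.14 under scaling by totals alone, 0.016 when the libraries were thinned to the smallest and 0.13 without H1975 replicate 3, and the mitosis median was 0.023 under scaling by totals alone. Replication-dependent histone genes had 9 higher and 22 lower members among 41 tested (67 listed), 6 and 7 of them past 2-fold, with a median log2 fold of -0.64 (-0.97 corrected, range -0.99 to -0.51). H2BC5 had 29.1 ± 1.86 CPM in H1975 and 3.37 ± 0.329 CPM in HCC827 (log2 fold -3.07 ± 0.12), H2AC6 44.5 ± 1.49 CPM in H1975 and 19.9 ± 2.11 CPM in HCC827 (log2 fold -1.14 ± 0.10), and H2BC18 (log2 fold -2.97 ± 0.18), H4C8 (log2 fold -2.50 ± 0.14) and H2AC11 (log2 fold -2.44 ± 0.16) were lower. Most transcripts of these genes lack a poly(A) tail, and the libraries were made from poly(A) RNA.

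Chromatin families had members in both directions. Of the 31 histone deacetylases and acetyl transferases tested, 16 were higher and 9 were lower in HCC827, 7 and 0 of them past 2-fold. At the median the log2 fold was 0.40 (0.50 corrected, range 0.04 to 0.50). HDAC7 had 40.8 ± 1.37 CPM in H1975 and 135 ± 21.3 CPM in HCC827 (log2 fold 1.72 ± 0.11), and HDAC5 (log2 fold 2.02 ± 0.11), HDAC10 (log2 fold 1.95 ± 0.13), KAT2A (log2 fold 1.87 ± 0.11) and HDAC1 (log2 fold 0.90 ± 0.10) were higher. Polycomb subunits had 15 higher and 8 lower members among 30 tested, 3 and 0 of them past 2-fold, and the median was 0.29 (0.37 corrected, range -0.06 to 0.37). PCGF2 had 34.5, 32.9 and 32.7 CPM in H1975 and 104, 148 and 122 CPM in HCC827 (log2 fold 1.89 ± 0.12, adjusted p = 4.53e-09), and PHF19 (log2 fold 1.39 ± 0.12), PHF1 (log2 fold 1.36 ± 0.12), MTF2 (log2 fold 1.16 ± 0.11) and CBX6 (log2 fold 0.56 ± 0.12) were higher. Among SWI/SNF subunits (27 tested of 28 listed), 14 were higher and 7 lower, with 0 and 2 past 2-fold. Across the list the median log2 fold was 0.25 (0.12 corrected, range -0.10 to 0.26). SMARCA4, the ATPase lost in some lung cancers, had 269 ± 7.44 CPM in H1975 and 435 ± 115 CPM in HCC827 (log2 fold 0.69 ± 0.15), DPF2 (log2 fold 1.17 ± 0.11) and BCL7A (log2 fold 0.92 ± 0.15) were higher and DPF3 (log2 fold -3.74 ± 0.37) and SMARCD3 (log2 fold -1.26 ± 0.13) lower. Under scaling by totals alone the medians were -0.064 for Polycomb and -0.10 for SWI/SNF. For enzymes and readers of DNA methylation the counts were 4 higher and 4 lower of 15 tested (16 listed), 0 and 2 past 2-fold. These genes had a median of 0.08 (0.02 corrected, range -0.27 to 0.17). UHRF1, which brings DNMT1 to replicated DNA, was lower (log2 fold -1.96 ± 0.11), as was TET1 (log2 fold -1.36 ± 0.12), and DNMT1 (log2 fold 0.81 ± 0.10), DNMT3A (log2 fold 1.10 ± 0.11) and TDG (log2 fold 0.94 ± 0.10) were higher. By totals alone this median was -0.27. Among histone lysine methylases and demethylases (54 tested of 59 listed), 19 were higher and 21 lower, with 2 and 6 past 2-fold, at a median of -0.07 (0.03 corrected, range -0.42 to 0.03). EHMT2 was higher (log2 fold 1.81 ± 0.14), and PRDM16 (log2 fold -4.75 ± 0.28), PRDM8 (log2 fold -1.73 ± 0.17), KDM7A (log2 fold -1.54 ± 0.12) and KDM2A, at 317 ± 7.07 CPM in H1975 and 130.1 ± 16.5 CPM in HCC827 (log2 fold -1.29 ± 0.11), were lower.

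Cell death genes held large differences in single members. Of the 20 BCL2 family genes tested, 11 were higher and 6 were lower in HCC827, 4 and 3 of them past 2-fold. A median of 0.30 (0.12 corrected, range -0.05 to 0.34) was found. BMF, a pro-apoptotic BH3-only protein, had 11.1, 10.6 and 12.0 CPM in H1975 and 119.6, 117 and 124 CPM in HCC827 (log2 fold 3.42 ± 0.10, adjusted p = 2.29e-12), and BIK, another, was higher (log2 fold 3.82 ± 0.13). The survival factor BCL2 had 2.63, 2.72 and 2.23 CPM in H1975 and 0.144, 0.117 and 0.0677 CPM in HCC827 (log2 fold -4.48 ± 0.31, adjusted p = 1.26e-08), HRK was lower (log2 fold -3.43 ± 0.30) and MCL1 had 324 ± 8.41 CPM in H1975 and 214 ± 13.8 CPM in HCC827 (log2 fold -0.59 ± 0.10). The median of the family was -0.052 under scaling by totals alone. For caspases and inhibitors of apoptosis the counts were 11 higher and 10 lower of 24 tested (28 listed), 2 and 1 past 2-fold. The middle log2 fold was -0.09 (0.08 corrected, range -0.44 to 0.08). CASP1, the inflammatory caspase, was lower (log2 fold -2.98 ± 0.16), BIRC3 (log2 fold 2.11 ± 0.13), HTRA2 (log2 fold 1.35 ± 0.11) and CASP10 (log2 fold 1.01 ± 0.13) were higher, and BIRC6 had a log2 fold of -0.49 ± 0.10 that was 0.10 after correction.

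Among imprinted genes, and among the few cancer-testis genes tested, most of them CT45, more were lower than higher in HCC827. Of 94 cancer-testis genes only 13 had enough counts to test, and of those 12 were lower and 1, DDX43, higher. The median was -10.56, or -7.29 with the 8 members at 0 in a line set to their bound. All 9 CT45 genes were lower and read in H1975 only or nearly so, CT45A3 being at least 346-fold lower, CT45A9 at least 263-fold lower and CT45A5 at a count ratio of 944 with an exact interval of 169 to 37293. These are near-identical neighbours on the X chromosome and amount to 1 locus rather than 9 measurements. XAGE1A, another X-linked antigen, had 184 ± 5.63 CPM in H1975 and 68.7 ± 10.3 CPM in HCC827 (log2 fold -1.42 ± 0.11). Among imprinted genes (31 tested of 40 listed), 8 were higher and 18 lower, with 7 and 12 past 2-fold. Their median log2 fold was -0.69 (-0.77 corrected, range -1.21 to -0.63). PEG3, a zinc finger gene expressed from the paternal allele, was at least 258-fold lower, and its neighbour ZIM2 had a count ratio of 1082 with an exact interval of 194 to 42749. PEG10 had 1062, 1013 and 991 CPM in H1975 and 275, 199 and 213 CPM in HCC827 (log2 fold -2.16 ± 0.13, adjusted p = 2.10e-09), and KCNQ1OT1, the antisense RNA of the imprinted KCNQ1 domain, was lower (log2 fold -5.12 ± 0.34). Libraries of the lines did not overlap for PEG10.

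Markers of cell types were read to describe both lines, and they do not check which line a library came from. Of 12 markers of epithelium and lung adenocarcinoma all were tested, 11 were higher in HCC827 and the other, MUC1, did not pass the test, with a median log2 fold of 1.68 (1.14 corrected). With the GC and length correction 11 were called higher and MUC1 was called lower. The summed level of the 12 markers was 4335 to 4629 CPM in H1975 and 12024 to 18651 CPM in HCC827. KRT7, KRT8, KRT18 and KRT19 are also in the keratin list, CDH1 is in the cadherin list and CLDN4 in the claudin list. For these genes the markers are not a separate observation. The keratin list by itself summed to 3471 to 3743 CPM in H1975 and 10730 to 17391 CPM in HCC827. NAPSA, the aspartic protease used to diagnose lung adenocarcinoma, had 1.76, 1.46 and 1.99 CPM in H1975 and 127, 150.1 and 188 CPM in HCC827 (log2 fold 6.48 ± 0.18, adjusted p = 1.29e-12), and CEACAM6 1.59, 1.15 and 1.49 CPM in H1975 and 184, 186 and 273 CPM in HCC827 (log2 fold 7.25 ± 0.20, adjusted p = 1.29e-12). Both stood at 1 to 2 CPM in H1975. Of 12 leukocyte markers 6 were tested, 2 higher and 3 lower, with a median log2 fold of -0.70 (-1.16 corrected). They summed to 362 to 389 CPM in H1975 and 1178 to 1467 CPM in HCC827, of which CSF1R, the receptor of macrophages, made up 295 ± 11.1 CPM in H1975 and 1170.3 ± 141 CPM in HCC827 (log2 fold 1.99 ± 0.11), while PTPRC, CD3E, CD3D, LYZ and NKG7 were too low to test, MS4A1 was at 0 in all 6 libraries and CD14 was lower (log2 fold -2.80 ± 0.18). Endothelial markers summed to 7.44 to 8.81 CPM in H1975 and 6.36 to 8.04 CPM in HCC827, with EGFL7 (log2 fold 3.01 ± 0.30) and VWF (log2 fold 1.95 ± 0.24) higher and KDR (log2 fold -2.23 ± 0.25) and PECAM1 (log2 fold -1.31 ± 0.18) lower. Gastrointestinal markers summed to 9.27 to 10.3 CPM in H1975 and 31.4 to 40.8 CPM in HCC827, and the 3 called, LGALS4 (a count ratio of 456 with an exact interval of 81.2 to 18093), VIL1 (log2 fold 1.77 ± 0.11) and GPA33 (log2 fold 1.79 ± 0.23), were higher. Erythroid markers stayed at 0.186 to 0.266 CPM in H1975 and 0.233 to 0.507 CPM in HCC827 and of 8 neuroendocrine markers 2 were tested, SYP being the 1 called (log2 fold -1.28 ± 0.28). Of 9 basal and squamous markers 5 were tested, 3 higher and 1 lower: TP63, the basal cell factor, had 65.3, 68.0 and 75.0 CPM in H1975 and 12.9, 9.91 and 12.0 CPM in HCC827 (log2 fold -2.54 ± 0.11, adjusted p = 1.20e-10), and SOX2 and KRT6B (log2 fold 1.22 ± 0.30) were higher. KRT6A had a log2 fold of 0.46 ± 0.19 and -0.00376 after correction. Ciliated cell markers split, with DNAH5 (log2 fold 1.81 ± 0.10) and PIFO (log2 fold 1.78 ± 0.24) higher and CAPS lower (log2 fold -3.06 ± 0.12).

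Along the chromosomes, differences came in blocks. Windows of 25 neighbouring tested protein-coding genes had medians from a 5th percentile of -0.88 to a 95th percentile of 1.01 over 14907 overlapping windows. The highest window, chr17:47844908-49210574 (GRCh38), held the HOXB cluster, with 21 of 25 genes higher and 3 lower (median 2.51, 2.28 corrected). The second, chr19:40691514-41772211 (median 2.06, 1.48 corrected), held CEACAM5, CEACAM6 and ENSG00000267881 (log2 fold 8.95 ± 0.24), with 23 higher and 2 lower. The third, chr1:43970000-45491155 (median 1.85, 1.34 corrected), held BTBD19 (log2 fold 4.46 ± 0.22), DMAP1 (log2 fold 3.45 ± 0.17) and the DNA repair gene MUTYH (log2 fold 2.61 ± 0.13), with 21 higher and 1 lower. The fourth, chr19:50188186-51108409 (median 1.82, 1.06 corrected), held the kallikrein proteases KLK11 (a count ratio of 228 with an exact interval of 40.3 to 9080.2) and KLK1 (at least 20.7-fold higher) and NAPSA. The fifth, chr19:37696371-38812945 (median 1.81, 1.34 corrected), held the galectins LGALS4, LGALS7 (at least 22.5-fold higher) and LGALS7B (a count ratio of 85.8 with an exact interval of 23.1 to 718), the last pair being near-identical. These windows were GC-rich, with median transcript GC of 52.2% to 63.5%, and their medians shrank with the correction but kept their sign.

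Of the 5 lowest windows, 4 lay on chromosome 19 over zinc finger clusters. In chr19:52369917-53392217 (median -2.55, -2.13 corrected) all 25 genes were lower past 2-fold, led by the retroviral envelope gene ERVV-2 (a count ratio of 211 with an exact interval of 58.1 to 1743), ZNF534 (log2 fold -4.83 ± 0.43) and ENSG00000269825 (log2 fold -4.19 ± 0.15). The windows chr19:20077994-23250394 (median -2.45, -1.95 corrected), with ZNF676, ZNF714 and ZNF208 (a count ratio of 28.9 with an exact interval of 7.78 to 242), chr19:51124906-52367778 (median -2.0, -1.62 corrected), with C19orf84 (at least 14.3-fold lower), ZNF841 (log2 fold -4.73 ± 0.15) and ZNF432, and chr19:11483427-12294883 (median -1.87, -1.61 corrected), with ZNF878 (log2 fold -4.63 ± 0.38), ZNF439 (log2 fold -4.03 ± 0.28) and ENSG00000257355 (log2 fold -3.09 ± 0.24), had 23, 18 and 21 genes lower. The fifth lay on chromosome 8 (median -1.76, -1.32 corrected), with CA2, a carbonic anhydrase (a count ratio of 98.5 with an exact interval of 17.4 to 3913), ATP6V0D2 (log2 fold -6.17 ± 0.22) and CNBD1 (log2 fold -3.08 ± 0.20). Chromosome 19 had windows at both ends of the ranking, so that 44.8% of its 1206 protein-coding genes were past 2-fold, 254 higher and 286 lower, against 27.5% of all protein-coding genes tested. Whole chromosomes leaned as well, with medians of -0.58 on chromosome 10, -0.48 on 15, -0.42 on 3, -0.40 on 7 and 0.34 on 17, which were -0.44, -0.36, -0.27, -0.33 and 0.13 after correction. The corrected median turned from 0.22 to -0.25 on chromosome 19 and went from 0.31 to 0.58 on chromosome 13, then the highest. Gene copy number was not measured, and its part in these blocks was not tested.

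**Figure D5:**
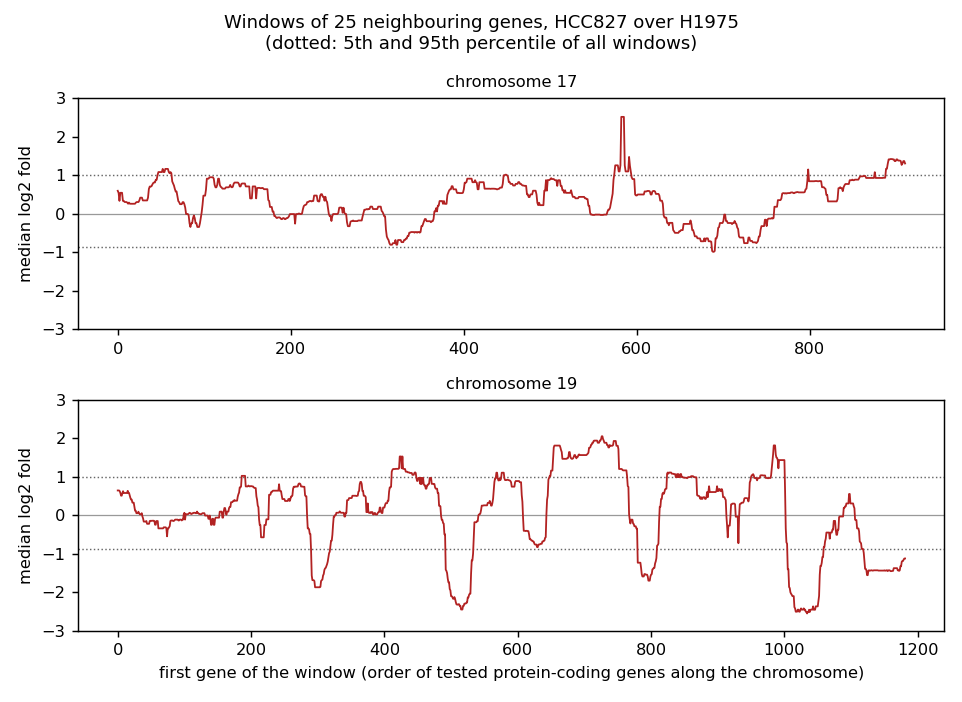
Median log2 fold (y axis) of windows of 25 tested protein-coding genes, in gene order along chromosomes 17 and 19 (x axis), with the 5th and 95th percentiles of all windows dotted. The HOXB window on chromosome 17 rises to 2.51 and the zinc finger windows on chromosome 19 fall to -2.55.

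At the other end, the most alike genes were sought among those with a mean of 100 CPM or more, by the tightest 95% interval around 0. They were LTO1, a factor of ribosome assembly, the receptor NRP1, the signal transducer SMAD3, the small GTPase RAB14 and the splicing factor SF3B1. NRP1 had 161, 149.6 and 149 CPM in H1975 and 159, 139.9 and 161 CPM in HCC827, with a log2 fold of 0.003 ± 0.10. LTO1 had 132 ± 1.83 CPM in H1975 and 132 ± 12.6 CPM in HCC827 and SMAD3 99.7 ± 4.41 CPM in H1975 and 100.3 ± 6.59 CPM in HCC827. Their likeness held for the main scaling only in part: after GC correction RAB14 had a log2 fold of 0.44 and SF3B1 of 0.60, and by totals alone NRP1, SMAD3, RAB14 and SF3B1 had -0.34 to -0.35.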

How the data were processed

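The values are counts, whole numbers of reads per gene with no normalization, deposited by the authors, each library in its own file. The submitters' processing notes name minimap2 2.17, featureCounts and the GRCh38 build. Which tool served these short reads, the strand setting and the handling of reads with several matches are not stated there. Each file lists 60738 features; the 76 spike-in rows were left out, 45 second copies of genes shared by X and Y were added to the X copy, and 60357 of the 60617 genes matched GENCODE release 44, which gave symbols, classes, coordinates and exon lengths. Of these genes 14378 had 0 counts in all 6 libraries.

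Genes passing filterByExpr were fitted with edgeR 4.0.16 (R 4.3.3) (TMM scaling, robust quasi-likelihood fit, 3 libraries per line, no covariate, two-sided tests, Benjamini-Hochberg adjustment over all tested genes, called below 0.05), and the 2-fold call used a test against a log2 fold of 1. The fit and the correction were tested on simulated data with known changes. CPM are counts scaled to the effective library size over tested genes, errors of means are SD and errors of log2 folds standard errors, each with n = 3 per line. A gene at 0 in a line was set to a floor of 3 counts over that line and its fold is a lower bound, and for 1 to 3 counts the ratio of counts per effective size has an exact Clopper-Pearson interval at 95%. Floors and intervals cover counting error only. Exact permutation tests compared shares between the lines, 9 measures giving adjusted p = 0.113 where p = 0.1. Per-library offsets from smooth curves on GC content and length gave the corrected values.

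The comparison, gene lists and markers were chosen with earlier results of these data known. Named genes follow 1 rule: the 10 largest folds each way among protein-coding genes past 2-fold with 20 CPM, the 5 largest rises and falls in CPM, the 5 highest levels per kilobase, the 3 largest lncRNA folds each way, the 10 highest genes read in 1 line only, up to 4 members with the largest folds and the most counted member of each list, the leading 3 genes of the 5 highest and 5 lowest windows, and the 5 most alike genes. Not every gene so chosen is named, and some are not reported here. Alternatives were other scalings, filters, DESeq2 1.42.0, limma 3.58.1 (voom), thinning to the smallest library, a replicate block, other thresholds and window sizes, and leaving out each library. Same-numbered replicates did not pair the samples, with correlations of their deviations of -0.075, -0.0099 and 0.110.

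The counts of some named genes are uncertain. Near-identical copies (97% identity or more over at least 30% of a transcript) exist for C4A, C4B, CBS, CT45A1, CT45A2, CT45A3, CT45A5, CT45A9, CYP51A1, GSTT2, H2BC18, HSP90AA1, ICOSLG, LGALS7, LGALS7B, MAGED4, MAGED4B, MT-ATP6, MT-ATP8, MT-CO1, MT-CO2, MT-CO3, MT-ND1, RPL7, TDG, UGT1A7, UGT1A9, UHRF1, VWF, XAGE1A, XCL1 and XCL2. Exons of another gene overlap on the same strand for AGRN, AIM2, ALDH1A3, C1R, C3, CAPS, CDH11, CEACAM5, CEACAM6, CLDN11, CLDN14, CLDN7, COL7A1, CYP26A1, DNMT1, EIF4E3, ELF3, ENSG00000214265, ENSG00000257355, ENSG00000267881, ENSG00000269825, ENTPD1, H2AC6, HDAC10, HOXB6, HOXC10, IL1RL1, ITGB3, KAT2A, LAMA5, LAMB3, MCL1, MRPL12, MRPL2, MT-ND4, MT1X, MUTYH, NDUFA9, NLRP1, OS9, P3H3, PCDHB15, PCDHB16, PCDHGA1, PEG3, POLD1, PSMB10, QARS1, ROS1, RPL28, SFTA2, SMARCA4, SNHG14, SNHG29, SNHG5, SNURF, TOX3, UGT1A6, ZIM2, ZNF208, ZNF432, ZNF676, ZNF714, ZNF841 and ZNF878. Overlap on the opposite strand, which matters if strand was not used, holds for AARS1, ACTG1, ALDH1L1, ALDH1L2, AQP5-AS1, ATP6V0D2, AXL, BCL7A, BIRC3, BIRC6, BMF, CDC25C, CDH1, COL1A1, COL4A2, COL5A1, CXCL5, DNAH5, DNAJA4, DPF2, DSG1, DSP, EEF1A1, EGFR, EHMT2, EIF3G, EPHA4, EPHA7, EPHB4, FAP, FAT2, FOXA1, FOXD1, FOXM1, GAPDH, GJD3, H4C8, HDAC5, HDAC7, HOXB2, HSPB6, HTRA2, ID2, IDH3A, IDH3G, IFI16, IL6ST, ITGA9, ITGB2, JAG1, KCNQ1OT1, KDM2A, KIF2C, KRT18, KRT7, LAMA1, LAMB1, LIG1, LOX, LOXL4, LTBP1, LTBR, LTO1, MMP1, MRPL37, NAPSA, NECTIN1, NRP1, PC, PCDHB5, PCDHB7, PCGF2, PEG10, PHF1, PRDM8, PRODH, PSME1, PYCARD, RFNG, SEMA5A, SERPINB3, SHMT2, SLC7A5, SMAD3, SMARCD3, SOX4, SPINT1, SYP, TNFRSF25, VCAN, VIL1, VIM and YARS1.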

Additional observations from a re-analysis of the deposited data

How the results depend on the processing

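Of 375 genes chosen by the naming rule, 348 held direction and call under every alternative run, while 15 lost and 10 gained the threshold and 10 reversed, some under different alternatives. With the GC and length correction ITGA3 turned to -0.10, AGRN to -0.29, BIRC6 to 0.10 and KRT6A to -0.00376; with library totals alone ANXA1 turned to -0.35, CX3CL1 to -0.0499, NRP1 to -0.35, SMAD3 to -0.34, RAB14 to -0.35 and SF3B1 to -0.35. The main count of called genes, 19061, was 16625 to 20870 under other scalings, filters and tools and 13532 when thinned to the smallest library. The genes tested differed too, so these counts are not shares of the same total. There were 25711 in the main fit, 21232 with a filter of 1 CPM in 3 libraries (16625 called), 46239 with no filter (20870 called) and 21151 when thinned. The number past 2-fold, 7015, was 4651 when thinned, 5232 with DESeq2, 5921 with voom, 7557 with totals alone and 7726 with no filter, and 13051 and 2379 against log2 folds of 0.5 and 2. Higher genes were 48.8% of those called and 48% of those past 2-fold, but 33.7% and 29.1% with totals alone. A block on the replicate number gave 18793 called and 6909 past 2-fold, although the numbers do not pair the samples. Without each library in turn 18015 to 19360 genes were called and 6667 to 7526 were past 2-fold. The cause of these shifts was not tested, beyond the fewer counts of thinned libraries.

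Genes read in HCC827 only, 37, were 121 with a minimum of 1 CPM, 9 with 20 CPM and 6 with 0 counts in the other line; those read in H1975 only, 34, were 135, 5 and 17. A count of windows past a median of 1, which did not take every overlapping window, gave 39 higher and 32 lower. It gave 79 and 77 with 15 genes, 16 and 12 with 50 genes and 14 and 101 with totals alone. With the GC correction 25 were higher. Some list medians moved over 1.5 times without 1 library. Without HCC827 replicate 1 leukocyte markers had -0.31 (main -0.70), metallothioneins -0.10 (main -0.22), claudins -0.48 (main -0.01), transferases 0.31 (main 0.19) and checkpoint genes 0.059 (main 0.11). Without HCC827 replicate 2 interleukins had -0.26 (main -0.14) and cadherins -0.23 (main -0.37). Without HCC827 replicate 3 leukocyte markers had -1.50, metallothioneins -0.34, ciliated markers 0.20 (main 0.41), cadherins -0.23, forkhead genes 0.14 (main 0.23), the TNF superfamily -0.08 (main -0.18), transferases 0.11, checkpoint genes 0.04 and interleukins -0.089. Without H1975 replicate 2 cadherins had -0.24 and checkpoint genes 0.06, and without H1975 replicate 3 forkhead genes had 0.076 and the TNF superfamily -0.11. Other medians under 0.1 in size also moved, within the ranges given beside them. By settings, cadherins had -0.067 when thinned and -0.093 with a filter of 1 CPM in 3 libraries, and desmosome genes 0.16 when thinned and 0.12 with totals alone (main 0.47). Depth limits low genes: HCC827 replicate 2 held 10020699 counts, so a gene unread there is less firmly absent than in H1975.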
